A study of Mus musculus with 6 samples.

Results

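The epidermal growth factor (EGF) family ligands and their ERBB receptors were examined in cultured mouse granulosa cells (GCs), the somatic cells around the oocyte within the follicle. The members were the ligands *Areg*, *Ereg*, *Btc*, *Hbegf*, *Tgfa* and *Nrg1* and the receptors *Egfr*, *Erbb2* and *Erbb3*, taken by gene name. Of these 9 genes, 8 had a row in the table of 16300 genes and passed the filter for testing, a mean of at least 10 normalized counts over the libraries, and *Areg* was not analysed here. RNA-seq was performed on 6 libraries of GCs from wild type C57BL/6J mice aged 8 to 9 weeks, 3 control and 3 treated with 25 nM dihydrotestosterone (DHT) for 24 h. DHT is an androgen that aromatase does not turn into estrogen. The GCs were collected on the day of estrus, cultured for 48 h with serum and starved of serum for 4 h before treatment. Control cells received media. Each library came from the pooled GCs of 5 mice, so that p-values describe the spread between pools. The labels describe the extracted material as whole ovary, whereas the cell type label and the methods of the study name GCs.

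EGF family ligands are made as precursors anchored in the cell membrane and are released by proteases of the ADAM family. TGF-alpha, the product of *Tgfa*, and amphiregulin (*Areg*) bind the EGF receptor, betacellulin (*Btc*), epiregulin (*Ereg*) and HB-EGF (*Hbegf*) bind both the EGF receptor and ERBB4, and neuregulin 1 (*Nrg1*) binds ERBB3 and ERBB4. ERBB2 has no known ligand of its own and signals as a partner of the other receptors, and ERBB3 has little kinase activity of its own. In the preovulatory follicle, luteinizing hormone induces *Areg*, *Ereg* and *Btc* in mural GCs, and their products act on the EGF receptor of cumulus cells, which drives cumulus expansion and resumption of meiosis.

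The libraries held 36111177 to 41928585 reads on genes. Of the granulosa markers, 9 of 10 were measured, and their summed level ranged from 124940 to 138943 normalized counts in control and from 112169 to 121451 in DHT, with *Hsd17b1* called higher and *Inha* and *Foxl2* lower. The sums did not overlap, but without *Inha* those of the other 8 markers did, at 67630.0 to 88318 in control and 76171 to 89180 in DHT. *Foxl2* passed narrowly by limma, with log2FC -0.15 (adjusted p = 0.049), and was not called by DESeq2 (adjusted p = 0.0765). The aromatase gene *Cyp19a1* was not analysed here. The summed level of 3 measured endothelial markers was 101 to 169 normalized counts over all libraries, and that of 4 measured leukocyte markers 471 to 546 in control and 362 to 605 in DHT. Of the leukocyte markers, *Csf1r*, which encodes a receptor of macrophages, was called lower, with log2FC -0.64 (adjusted p = 0.027 by limma), whereas *Ptprc*, *Cd68* and *Lyz2*, with log2FC of 0.72, -0.075 and -0.11, were not called. The groups of *Csf1r* did not overlap. Nor did those of *Ptprc*, a very low gene, with 5.94, 8.36 and 11.1 normalized counts in control and 15.7, 12.0 and 15.2 in DHT. Of all genes tested, 14.7% had every DHT library below every control library, and 15.9% had every DHT library above. Markers of the ovarian surface epithelium, which also include keratins of other cells, summed to 4112 to 4802 in control and 3268 to 4390 in DHT. Of 7 theca and stroma markers, 5 were measured, and the theca genes *Cyp17a1* and *Insl3* were not analysed here. These 5 summed to 3500 to 4444 in control and 4016 to 4536 in DHT, and none was called (log2FC from -1.05 to 0.24). The 5 oocyte markers summed to 306 to 641 normalized counts in control and to 478, 104 and 491 in DHT replicates 1, 2 and 3, with *Zp3* and *Oosp1* at 0 in DHT replicate 2, where *Ddx4* at 73.1 lay within its control range of 67.8 to 87.1. The part of these markers in the differences below was not tested.

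DHT-treated GCs had less mRNA of 2 ligands, *Btc* and *Tgfa*, and of 1 receptor, *Erbb2*. No member passed the test in the other direction. The values are normalized counts, the reads of a gene divided by the size factor of the library, and were compared as log2(value + 1) with the moderated test of limma. The difference of a gene is given as the log2FC (mean log2 value in DHT minus that in control), with its standard error (SE). Genes whose p, adjusted over the 16292 genes tested (Benjamini-Hochberg), was 0.05 or less were called. Of all genes tested, 11.2% were called, 6.52% higher and 4.66% lower in DHT. Of the 8 measured members, 3 were called lower by limma. The number called higher was 0 by limma, edgeR and DESeq2 alike, and 0 had an unadjusted p under 0.05 with a positive log2FC. The median log2FC of the members was -0.21, against -0.0052 over all genes tested, and 7 of the 8 members had a negative value. For *Ereg* and *Nrg1* these values came near 0 when control replicate 3 was left out. In the 3 called members every DHT library lay below every control library, a pattern that 14.7% of all genes tested showed. With limma run without its intensity trend, which lets the spread depend on the level of a gene, the adjusted p was 0.078 for *Btc*, 0.087 for *Tgfa* and 0.067 for *Erbb2*, so that none was called, whereas edgeR and DESeq2 called the same 3 members lower. The 5 measured ligands together had 2438 to 2719 normalized counts in control and 1944 to 2191 in DHT, most of them from *Tgfa*. The sums of the 3 receptors, 3648 to 3975 and 3390.0 to 3728, overlapped. An exact permutation test over 3 libraries against 3 cannot give a p below 0.1. In bulk samples, fewer cells that express a gene and less RNA per cell cannot be told apart.

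**Figure D1:**
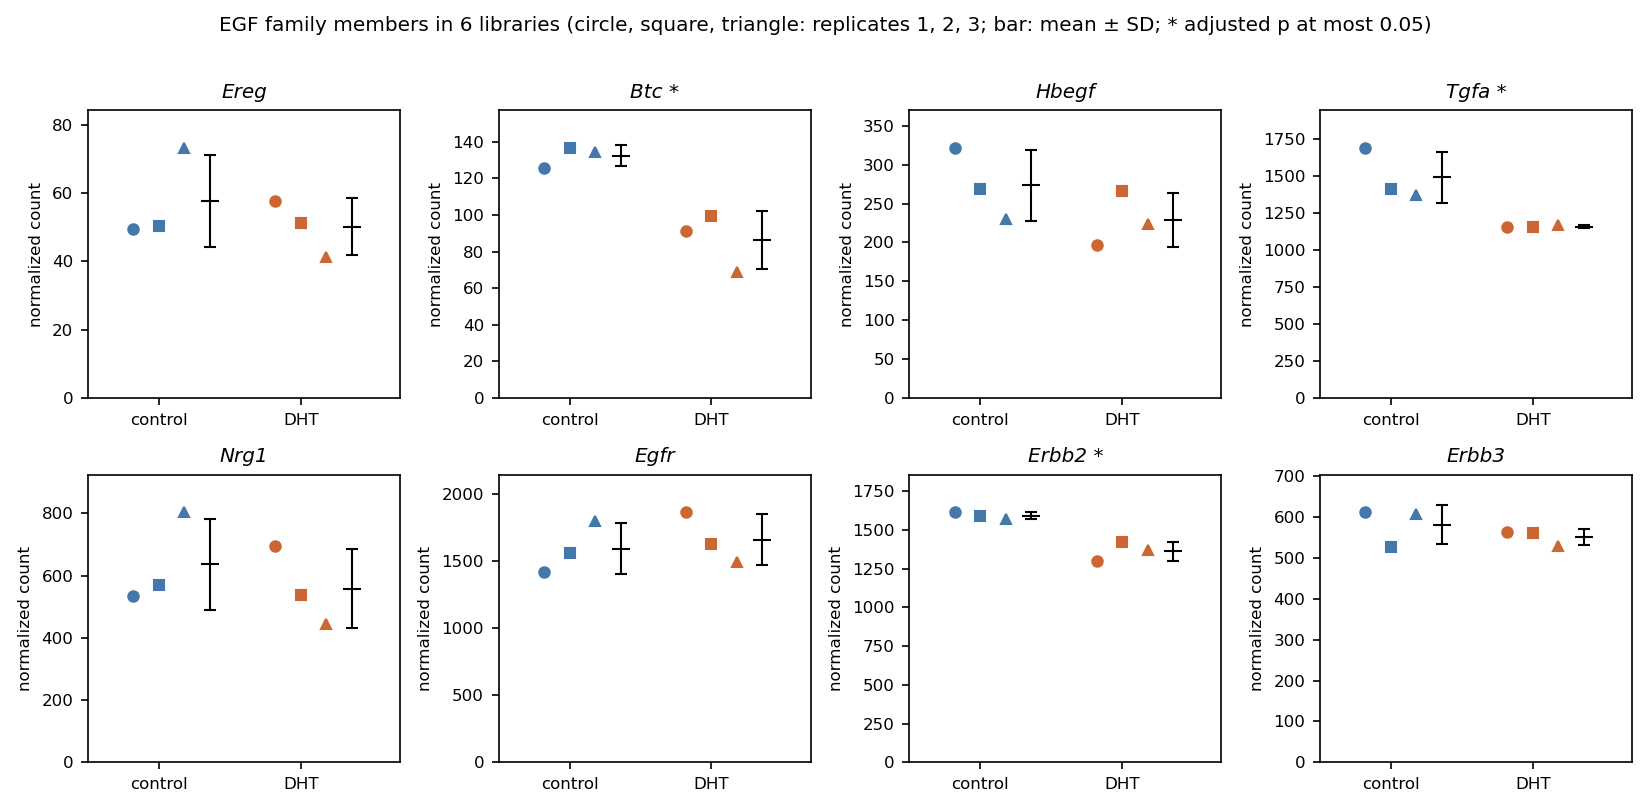
Normalized counts of the 8 measured members in 3 control and 3 DHT libraries, with 1 point per library (circle, square and triangle for replicates 1, 2 and 3) and the mean ± SD beside each group. The groups are apart in *Btc*, *Tgfa* and *Erbb2*, marked with an asterisk, and overlap in the other 5 members.

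*Btc* (ENSMUSG00000082361; chromosome 5 of GRCm38, 91357261 to 91402994, minus strand) encodes betacellulin. The control libraries held 126, 137 and 134 normalized counts and the DHT libraries 91.0, 99.3 and 68.6. The control libraries lay close together, and the highest DHT library was below the lowest control library. *Btc* fell from 132 ± 5.78 to 86.3 ± 15.9 (SD, n = 3 in each group), with log2FC -0.63 (SE 0.16, adjusted p = 0.037 by limma). The change was the largest among the members, and the gene was low, with 63 to 147 reads per library. Leaving out any 1 library other than DHT replicate 2 ended the call, with adjusted p from 0.065 to 0.11 by limma and log2FC from -0.67 to -0.47.

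*Tgfa* (ENSMUSG00000029999; chromosome 6, 86195223 to 86275719, plus strand) encodes TGF-alpha, a ligand of the EGF receptor. In control its normalized counts were 1688, 1412 and 1371, and in DHT 1151, 1151 and 1166. The DHT libraries were nearly equal, and control replicate 1 stood above the other control libraries. *Tgfa* fell from 1490.2 ± 172 to 1156 ± 8.50 (SD, n = 3 in each group), with log2FC -0.36 (SE 0.075, adjusted p = 0.016 by limma). Without DHT replicate 2 or DHT replicate 3 the adjusted p by limma was 0.061 or 0.059. Exons of *Tgfa* overlap *Gm43917* on the other strand, and the strand setting of the counting is not given in the sources used here.

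*Erbb2* (ENSMUSG00000062312; chromosome 11, 98412470 to 98437716, plus strand) encodes the receptor that has no known ligand of its own. It held 1614, 1588 and 1570.2 normalized counts in the control libraries and 1298, 1419 and 1368 in the DHT libraries. Both groups were narrow and did not overlap. *Erbb2* fell from 1591 ± 21.9 to 1362 ± 61.1 (SD, n = 3 in each group), with log2FC -0.23 (SE 0.047, adjusted p = 0.017 by limma), the smallest of the 3 called changes. The adjusted p by limma was 0.055 without DHT replicate 1 and 0.059 without DHT replicate 3. Exons of *Erbb2* overlap *Mien1* on the other strand.

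The stretches before the RefSeq start sites of the 3 called genes are shown because these genes moved in the same direction. They are given 5′ to 3′ on the strand of the gene, on GRCm38.p6, and bases that GENCODE M21 places in an exon of the gene were left out. Capitals mark the GC box GGGCGG, read on both strands.
Btc, chr5:91402995-91403244, minus strand: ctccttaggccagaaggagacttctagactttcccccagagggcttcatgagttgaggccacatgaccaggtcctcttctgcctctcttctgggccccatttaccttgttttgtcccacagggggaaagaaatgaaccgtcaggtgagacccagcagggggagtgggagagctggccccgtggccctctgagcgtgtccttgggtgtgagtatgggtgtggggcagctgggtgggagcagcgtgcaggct
Tgfa, chr6:86194972-86195221, plus strand: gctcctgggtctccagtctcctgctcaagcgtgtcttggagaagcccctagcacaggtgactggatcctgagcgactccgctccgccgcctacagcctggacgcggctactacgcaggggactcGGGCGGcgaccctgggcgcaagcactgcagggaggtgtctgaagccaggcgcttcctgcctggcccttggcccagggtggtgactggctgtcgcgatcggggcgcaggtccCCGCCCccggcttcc
Erbb2, chr11:98412234-98412469, plus strand: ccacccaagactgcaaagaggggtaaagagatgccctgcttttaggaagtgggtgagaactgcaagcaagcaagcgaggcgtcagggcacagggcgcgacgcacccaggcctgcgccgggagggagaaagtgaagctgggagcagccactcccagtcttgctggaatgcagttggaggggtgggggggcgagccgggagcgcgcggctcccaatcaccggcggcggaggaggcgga

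Short sequences were searched on both strands: the cAMP response element TGACGTCA, the androgen receptor half-site TGTTCT, the full androgen receptor site, made of AGAACA, any 3 bases and TGTTCT and thus holding the half-site on each strand, and the GC box. Only *Tgfa* of the 3 genes held any of them, the GC box at 126 and 15 bases before the start site. Of 32851 RefSeq start sites with 250 bases each, 32.7% held a GC box, 16.1% the half-site, 1.55% the cAMP response element and 0.00913% the full site. These are matches of letters only, in short windows.

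The remaining ligands did not pass the test. *Ereg*, which encodes epiregulin, had 49.5, 50.2 and 73.2 normalized counts in control and 57.7, 51.3 and 41.4 in DHT, from 38 to 79 reads per library. Its log2FC was -0.19, with a 95% confidence interval from -0.68 to 0.31, and -0.0046 without control replicate 3. *Hbegf*, which encodes HB-EGF, had 322, 269 and 231 in control and 197, 266 and 224 in DHT. The interval of its log2FC of -0.25 ran from -0.59 to 0.081, and the value ranged from -0.37 to -0.13 with each library left out. For *Nrg1*, the neuregulin member, the control libraries held 534, 572 and 804 normalized counts and the DHT libraries 695, 538 and 444. Its log2FC was -0.19, with an interval from -0.60 to 0.22, and -0.0081 without control replicate 3. The groups of all 3 ligands overlapped, and their intervals include a change as large as that of *Tgfa*.

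*Egfr*, the receptor for TGF-alpha, betacellulin, epiregulin and HB-EGF, had 1423, 1562 and 1799 normalized counts in control and 1867, 1626 and 1493 in DHT. The groups covered nearly the same range. The log2FC was 0.060 (95% confidence interval -0.16 to 0.28, adjusted p = 0.76 by limma), the only value above 0 among the members. It turned to -0.018 without control replicate 1 and to -0.026 without DHT replicate 1. *Erbb3*, the receptor with little kinase activity, had 611, 526 and 606 normalized counts in control and 564, 561 and 529 in DHT. Its log2FC was -0.074, with a 95% confidence interval from -0.24 to 0.097. In *Egfr*, *Nrg1* and *Ereg*, control replicate 3 was the highest control library and DHT replicate 1 the highest DHT library. This was not particular to the family. Among the measured granulosa markers, *Fshr*, *Inhba*, *Hsd17b1*, *Nr5a2* and *Fst* showed the same, and *Foxl2*, *Amh*, *Amhr2* and *Inha* did not.

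**Figure D2:**
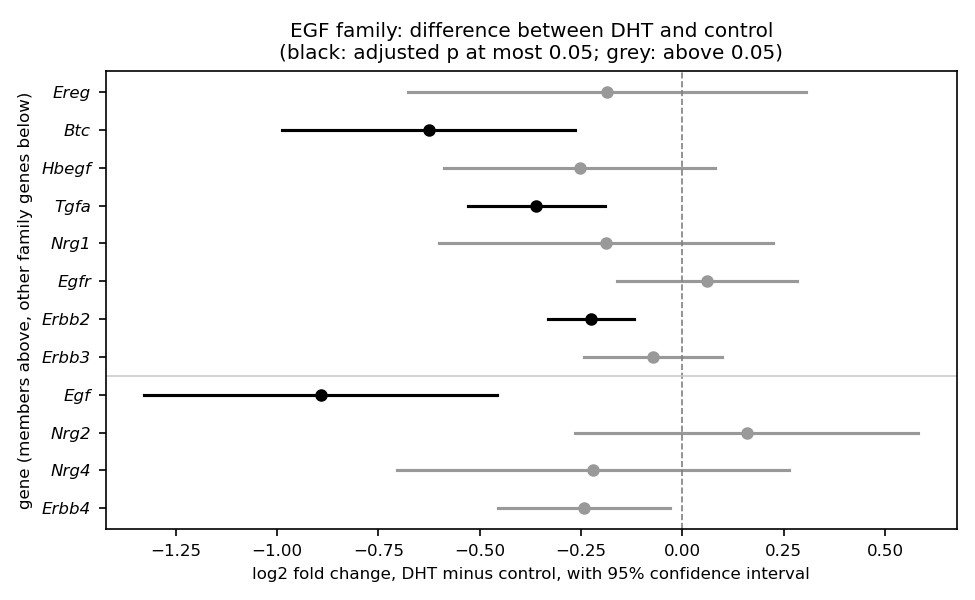
Log2FC (DHT minus control, horizontal axis) of 8 members and of 4 other EGF family genes, with 95% confidence intervals from limma (black for called genes, grey for others). The called genes *Btc*, *Tgfa*, *Erbb2* and *Egf* lie below 0 with their intervals, as does *Erbb4*, which was not called, and the points of *Egfr* and *Nrg2* alone lie above 0.

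Of 6 further family genes, *Egf*, *Nrg2*, *Nrg4* and *Erbb4* were measured, and *Epgn* and *Nrg3* were not analysed here. *Egf*, the ligand that gave the family its name, had 274, 374 and 365 normalized counts in control and 243, 147 and 162 in DHT. It fell from 338 ± 55.1 to 184 ± 51.3 (SD, n = 3 in each group), with log2FC -0.89 (SE 0.19, adjusted p = 0.019 by limma). The groups did not overlap, and control replicate 1 and DHT replicate 1 were the nearest libraries across them. Without control replicate 2, DHT replicate 2 or DHT replicate 3 the adjusted p of *Egf* by limma was 0.070, 0.070 or 0.085. Without the intensity trend it was 0.095. Exons of *Egf* overlap *Gm42697* and *6330410L21Rik* on the other strand. *Erbb4*, the other neuregulin receptor, had 417, 338 and 356 normalized counts in control and 323, 305 and 306 in DHT, groups that did not overlap. Its log2FC was -0.24 (adjusted p = 0.14 by limma). The neuregulin genes *Nrg2* and *Nrg4* had log2FC of 0.16 and -0.22, and adjusted p of 0.65 and 0.58 by limma.

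To compare levels between genes, the recovered reads were divided by exonic length and by the reads on genes of the library (RPKM). On this scale *Erbb2* was the highest family gene in control, at 7.94 ± 0.19 (SD, n = 3), followed by *Tgfa* at 5.98 ± 0.75, *Egfr* at 3.66 ± 0.40 and *Erbb3* at 2.51 ± 0.21. *Tgfa* was thus the most abundant of the measured ligands, which do not include *Areg*, *Epgn* and *Nrg3*, and these 4 genes were apart from their neighbours in the order, with no overlap of the control libraries. *Nrg1* at 1.60 ± 0.35 and *Hbegf* at 1.47 ± 0.26 overlapped. *Nrg2*, *Erbb4*, *Egf* and *Btc*, from 0.98 down to 0.76, overlapped each with the next. *Ereg* at 0.36 ± 0.081 and *Nrg4* at 0.29 ± 0.046 were lowest and overlapped as well. In DHT, *Erbb2* had 6.66 ± 0.26, *Tgfa* 4.54 ± 0.031, *Egfr* 3.74 ± 0.45 and *Btc* 0.49 ± 0.090 on the same scale (SD, n = 3). The order depends on the exonic length, which joins the exons of all annotated transcripts, used in these cells or not. *Egfr* and *Erbb2*, with 11326 and 5210 exonic bases, had nearly equal control means of 1595 and 1591 normalized counts.

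**Figure D3:**
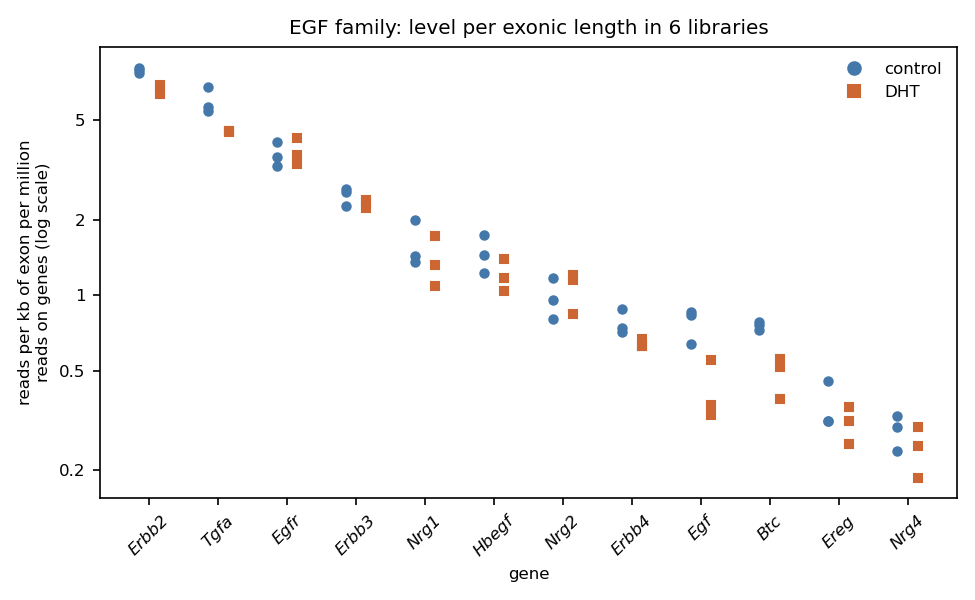
RPKM, the reads per kilobase of exon scaled to the reads on genes (vertical axis, log scale) of 12 EGF family genes in each of 3 control (circles) and 3 DHT libraries (squares), ordered by the control mean. *Erbb2*, *Tgfa*, *Egfr* and *Erbb3* are the 4 highest, and *Ereg* and *Nrg4* the lowest.

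Genes with the pattern nearest to a called member were found by the Euclidean distance of their 6 log2 values, each centred on its mean, among 12704 genes with a mean of at least 50 normalized counts. The nearest to *Btc* were *Rin3*, *Tvp23a* and *Gm23130*, at distances of 0.17, 0.24 and 0.26, against a median of 0.88 over all genes compared. For *Tgfa* they were *Rasgrf2*, *Nrn1* and *Pcyt1a*, at 0.083 to 0.10, against a median of 0.53. For *Erbb2* they were *Rab33b*, *D6Wsu163e* and *B4galt4*, at 0.031 to 0.053, against a median of 0.36. These distances describe the 6 libraries and carry no test.

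The genes around the receptors were grouped by role. Of 56 measured genes of 6 lists, the other family genes included, 5 were called higher and 4 lower in DHT, with a median log2FC of 0.0022, beside 6.52% higher and 4.66% lower over all genes tested. The calls lay in ligand release, receptor inhibition, ERK feedback and targets, and cumulus genes, besides *Egf*. None of the 16 genes of the adaptors and the RAS-ERK cascade was called by limma, with log2FC from -0.059 for *Sos2* to 0.11 for *Map2k2*. In that list 1 gene, *Map2k2*, had an unadjusted p under 0.05, and neither edgeR nor DESeq2 called any. Without control replicate 3 another of them, *Gab1*, was called by limma, with log2FC 0.16 (adjusted p = 0.037), against 0.072 with all libraries.

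**Figure D4:**
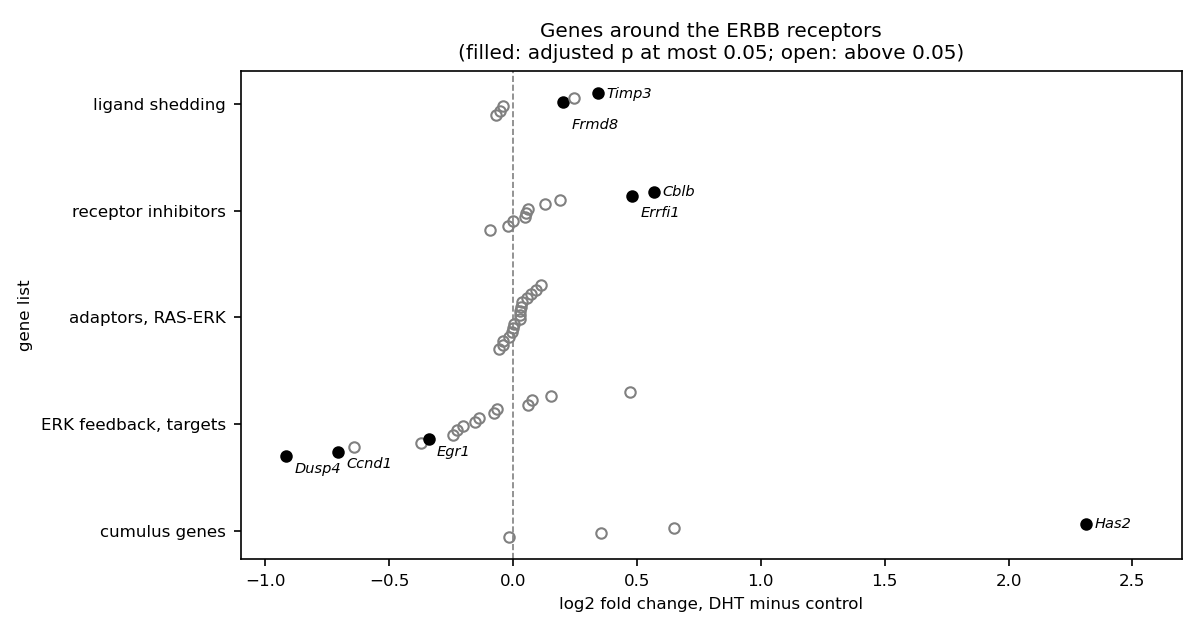
Log2FC (DHT minus control, horizontal axis) of the genes of 5 lists around the ERBB receptors, 1 point per gene, filled where limma called the gene. The 16 genes of the adaptors and the RAS-ERK cascade lie between -0.059 and 0.11, whereas *Has2* lies at 2.31 and *Dusp4* at -0.92.

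Of 6 genes of ligand shedding, 2 were called, both higher in DHT, beside 6.52% of all genes tested. *Timp3*, which encodes an inhibitor of metalloproteinases including ADAM17, had 2334, 2444 and 2417 normalized counts in control and 3260, 2912 and 2956 in DHT. It rose by a log2FC of 0.34 (SE 0.050, adjusted p = 0.0030 by limma), and every DHT library was above every control library, as in 15.9% of all genes tested. *Frmd8*, whose product stabilises the iRhom proteins that escort ADAM17, rose from 4479 ± 221 to 5151 ± 184 (SD, n = 3), with log2FC 0.20 (adjusted p = 0.025 by limma). Without control replicate 2, DHT replicate 2 or DHT replicate 3 its adjusted p by limma was 0.071, 0.096 or 0.10, and 0.11 without the intensity trend. The sheddase genes *Adam17* and *Adam10* had log2FC of -0.071 and -0.040, neither of which passed the test, and *Rhbdf1* and *Rhbdf2*, the iRhom genes, had -0.054 and 0.25. Without control replicate 3 *Rhbdf2* was called, with log2FC 0.38 (adjusted p = 0.0042 by limma).

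Of 10 receptor inhibitors and ubiquitin ligases, 2 were called, both higher in DHT, beside 6.52% of all genes tested. *Cblb*, which encodes a ubiquitin ligase that marks activated receptors for degradation, had 1546, 1557 and 1636 normalized counts in control and 2425, 2336 and 2269 in DHT. The groups were far apart relative to their spread. *Cblb* rose by a log2FC of 0.57 (SE 0.044, adjusted p = 0.00013 by limma), and passed in all 16 alternative settings. *Errfi1*, whose product binds and inhibits the kinase of the EGF receptor, had 840.0, 962 and 1148 normalized counts in control and 1478, 1316 and 1295 in DHT. It rose by a log2FC of 0.48 (SE 0.10, adjusted p = 0.020 by limma). Its adjusted p by limma lay from 0.055 to 0.066 without control replicate 2 or without any 1 of the DHT libraries, and was 0.10 without the intensity trend. *Lrig1*, a membrane inhibitor of ERBB receptors, had a log2FC of 0.19 (adjusted p = 0.051 by limma, 0.022 by DESeq2). It was called in 5 of the 16 alternative settings, with adjusted p down to 0.016 by limma without control replicate 3.

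Of 16 genes of ERK feedback and ERK targets, 3 were called by limma, all lower in DHT, beside 4.66% of all genes tested. *Dusp4*, which encodes a nuclear phosphatase of ERK, had 3335, 3053 and 4224 normalized counts in control and 2005, 1863 and 1710 in DHT. It fell by 0.92 on the log2 scale (SE 0.11, adjusted p = 0.0010 by limma), with the groups well apart. *Egr1*, an immediate-early transcription factor, fell from 10526 ± 706 to 8304 ± 303 (SD, n = 3), with log2FC -0.34 (adjusted p = 0.0037 by limma). *Ccnd1*, which encodes cyclin D1, had 220, 155 and 176 normalized counts in control and 87.1, 123 and 127 in DHT, with log2FC -0.71 (adjusted p = 0.039 by limma). *Ccnd1* stayed called only when control replicate 2 was the library left out, and the adjusted p by limma without another library lay from 0.053 to 0.11. Without the intensity trend it was 0.12 for *Ccnd1* and 0.051 for *Egr1*. The related phosphatase genes *Dusp5* and *Dusp6* had log2FC of 0.47 and 0.15 with adjusted p of 0.061 and 0.47 by limma (*Dusp5* 0.022 by DESeq2), and *Fos* had -0.37 with overlapping groups. Without control replicate 3 *Fos* was called at -0.61 (adjusted p = 0.0063 by limma) and *Dusp5* at 0.64 (adjusted p = 0.0014 by limma), whereas *Fos* had -0.17 without control replicate 2.

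Of 4 cumulus genes that EGF receptor signalling induces, 1 was called higher, beside 6.52% of all genes tested. *Has2*, which encodes hyaluronan synthase 2, had 273, 569 and 492 normalized counts in control and 2396, 1957 and 2008 in DHT, with log2FC 2.31 (SE 0.23, adjusted p = 0.00040 by limma). *Ptgs2*, the prostaglandin synthase of the same response, had 2455, 2835 and 3651 normalized counts in control and 3175, 2763 and 2789 in DHT, with log2FC -0.018, a sign that turned to 0.14, 0.018 or 0.011 without control replicate 3, DHT replicate 2 or DHT replicate 3. *Ptx3* and *Tnfaip6*, which encode proteins that bind and link the hyaluronan matrix, had log2FC of 0.65 and 0.36 with adjusted p of 0.070 and 0.24 by limma, and without control replicate 3 that of *Ptx3* was 0.026.

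**Figure D5:**
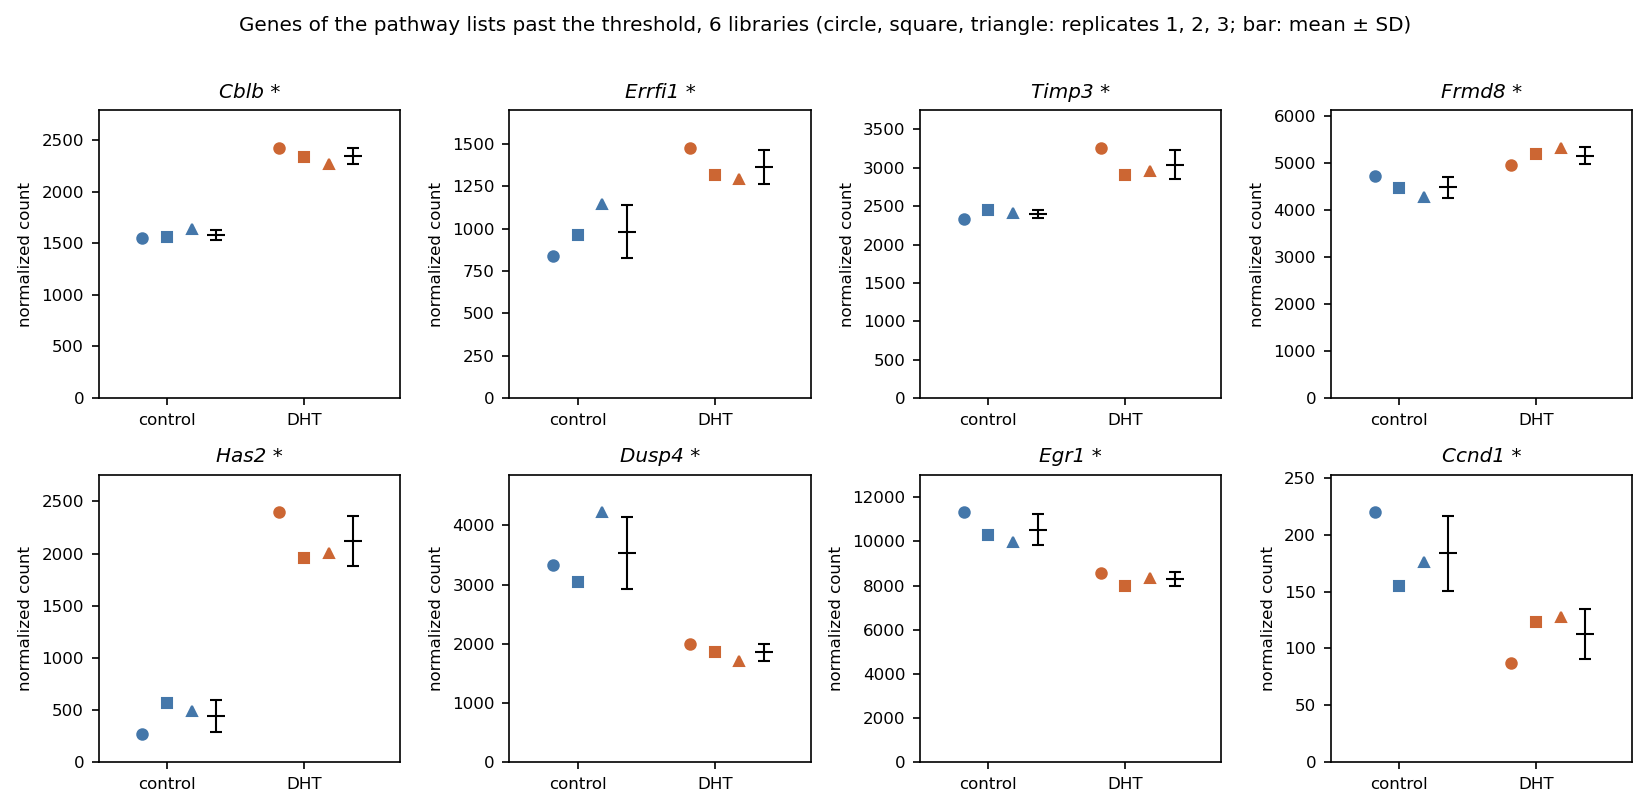
Normalized counts of 8 called genes of the pathway lists other than *Egf* in 3 control and 3 DHT libraries, with 1 point per library and the mean ± SD beside each group. *Cblb*, *Errfi1*, *Timp3*, *Frmd8* and *Has2* are higher in every DHT library than in every control library, and *Dusp4*, *Egr1* and *Ccnd1* lower.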

How the data were processed

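RNA-seq was measured in 6 libraries. The authors trimmed reads with Trimmomatic 0.36, mapped them to GRCm38 with STAR 2.5.2b and counted unique exonic reads with featureCounts of Subread 1.5.2 (methods and submitters' processing notes). The deposited signal of each gene is a normalized count, its reads divided by 1 DESeq2 size factor per library. Deposited columns with the authors' fold changes and p-values, and a second table of genes selected by them, were not used. The ChIP-seq data were not analysed here.

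Values were taken as log2(value + 1), which understates changes of low genes. The main model was limma 3.58.1 (R 4.3.3) with intensity trend and no block, for the 16292 genes averaging 10 or more. Whole reads were recovered from the common step of each library (100% of values within 0.01 of a whole read) for edgeR 4.0.16 (quasi-likelihood) and DESeq2 1.42.0 (Wald), run as alternatives. Groups came from the treatment label. On simulated counts of 16292 genes, 200 of those with a mean of at least 50 were changed by a fold of 2. Of the changed genes limma found 94.5%, and it made 16 false calls. Smaller changes, such as those of the members, were not simulated. Positions and exonic lengths are from GENCODE M21, and promoter sequences from RefSeq on GRCm38.p6. Members and lists were chosen with earlier results of these data known. Named were all members, the measured other family genes, called genes of the lists and the 3 genes nearest to each called member. Single uncalled genes of the lists and single cell type markers were chosen after their values were seen.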

Additional observations from a re-analysis of the deposited data

How the results depend on the processing

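Members and pathway lists were recounted under 16 alternatives: pseudocounts of 0.5 and 8, no filter, a mean of at least 50, TMM and quantile scaling, no intensity trend, edgeR, DESeq2, a replicate block, and each library left out. The number of members higher in DHT was 0 in each. Without the intensity trend, 501 genes were higher and 303 lower over all genes, 0 members were lower, and 3 list genes were higher and 1 lower. With the replicate block these counts were 633 and 357, 1 member (*Tgfa*), and 3 and 2. The block ended the calls of *Egf*, *Errfi1*, *Frmd8* and *Ccnd1*, with adjusted p of 0.069, 0.063, 0.098 and 0.11 by limma. The deviations of same-numbered libraries correlated at 0.0058, 0.067 and -0.24, control replicate 1 correlated best with DHT replicate 3, and nothing in the labels pairs the numbers. With each library left out, all genes ranged from 581 to 1237 higher and 350.0 to 857 lower, members lower from 0 (without DHT replicate 3) to 2, and list genes from 3 to 10 higher and 2 to 5 lower, the highest without control replicate 3. Without DHT replicate 2, whose summed oocyte markers were lowest, 586 genes were higher and 384 lower, 2 members were lower, and 3 list genes were higher and 2 lower. Without DHT replicate 1, 1 member was lower. The log2FC of *Egfr* ranged from -0.026 to 0.15, and turned to -0.018 without control replicate 1 and to -0.026 without DHT replicate 1. That of *Dusp6* ranged from -0.0037 (without control replicate 1) to 0.24, and that of *Ptgs2* from -0.15 to 0.14. The cause of these shifts was not tested, although leaving out a library also leaves fewer samples. *Ereg* and *Nrg4*, with the fewest reads of the family, had the largest standard errors, 0.22 and 0.21.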
